A study of Mus musculus with 27 samples.

Results

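Collagen genes were taken as every gene of the deposited RNA-Seq table whose symbol is Col, a number, the letter a and a number, which gave 44 of the 24065 genes. They comprise 11 fibrillar collagens, 8 basement membrane collagens (types IV, XV and XVIII) and 25 other collagens. Col4a3bp starts with the same letters but does not match the rule. Transcripts were measured in 6 whole mouse embryos at E8.5, 3 WT and 3 Dnmt3b-/- littermates of strain C57BL/6J, to ask how DNMT3B-dependent methylation influences transcription. Dnmt3b encodes a de novo DNA methyltransferase. The Dnmt3b-/- embryos came from matings of heterozygous parents and were homozygous for a catalytically inactive allele, made by crossing Dnmt3b-2lox mice with an ACTB-Cre deleter line, which acts in the whole animal. Each embryo gave 1 library of total RNA depleted of ribosomal RNA, and no embryos were pooled.

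Collagens are secreted or membrane-bound proteins that assemble as ropes of intertwined chains, and each chain has its own gene. Fibrillar collagens form the fibrils of mesenchyme, bone and cartilage. Basement membrane collagens, above all type IV, form the sheets on which epithelia and vessels rest and which also line the yolk sac. The remaining collagens coat fibrils, form beaded filaments or anchoring fibrils, or sit in the cell membrane. Every chain needs enzymes that hydroxylate it and a chaperone, SERPINH1, that escorts it through the secretory pathway.

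The collagen genes were lower in Dnmt3b-/- embryos far more often than higher. Of the 35 collagen genes with enough counts to test, 15 were lower in Dnmt3b-/- embryos and 0 were higher at a Benjamini-Hochberg adjusted p below 0.05 in edgeR's quasi-likelihood test over 15114 genes. This is 42.9% of the tested collagens, whereas 18.1% of all genes tested were lower and 17.6% were higher. No collagen was higher at an unadjusted p below 0.05 either, and DESeq2 and limma also called 0 higher. The median log2 fold change of the collagens was -0.62, against -0.03 over all genes tested, and 29 of the 35 values were negative, against 52.1% of all genes. Among the tested collagens, 15 had every Dnmt3b-/- embryo below every WT embryo, as did 26.5% of all genes, and 1, Col24a1, had every Dnmt3b-/- embryo above, as did 25.3% of all genes. At a fold change above 2 in addition, 4 collagens were lower (Col8a2, Col11a2, Col7a1 and Col4a6), against 3.78% of all genes, and 0 were higher, against 2.12%.

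The same samples showed a fall of fold changes with the GC content of the transcript, and collagen transcripts are rich in GC. The median exonic GC content was 57.1% in the tested collagens and 50.3% in all genes tested. When a smooth dependence on GC content and exon length was taken out of every library, 3 collagens (Col4a6, Col4a5 and Col8a2) remained lower, against 10.8% of all genes, and 0 were higher, against 12.5% of all genes. The corrected median was -0.20, against -0.01 over all genes, and 27 of 35 values were negative, against 50.7% of all genes. Corrected values are therefore given below beside the changes.

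**Figure D1:**
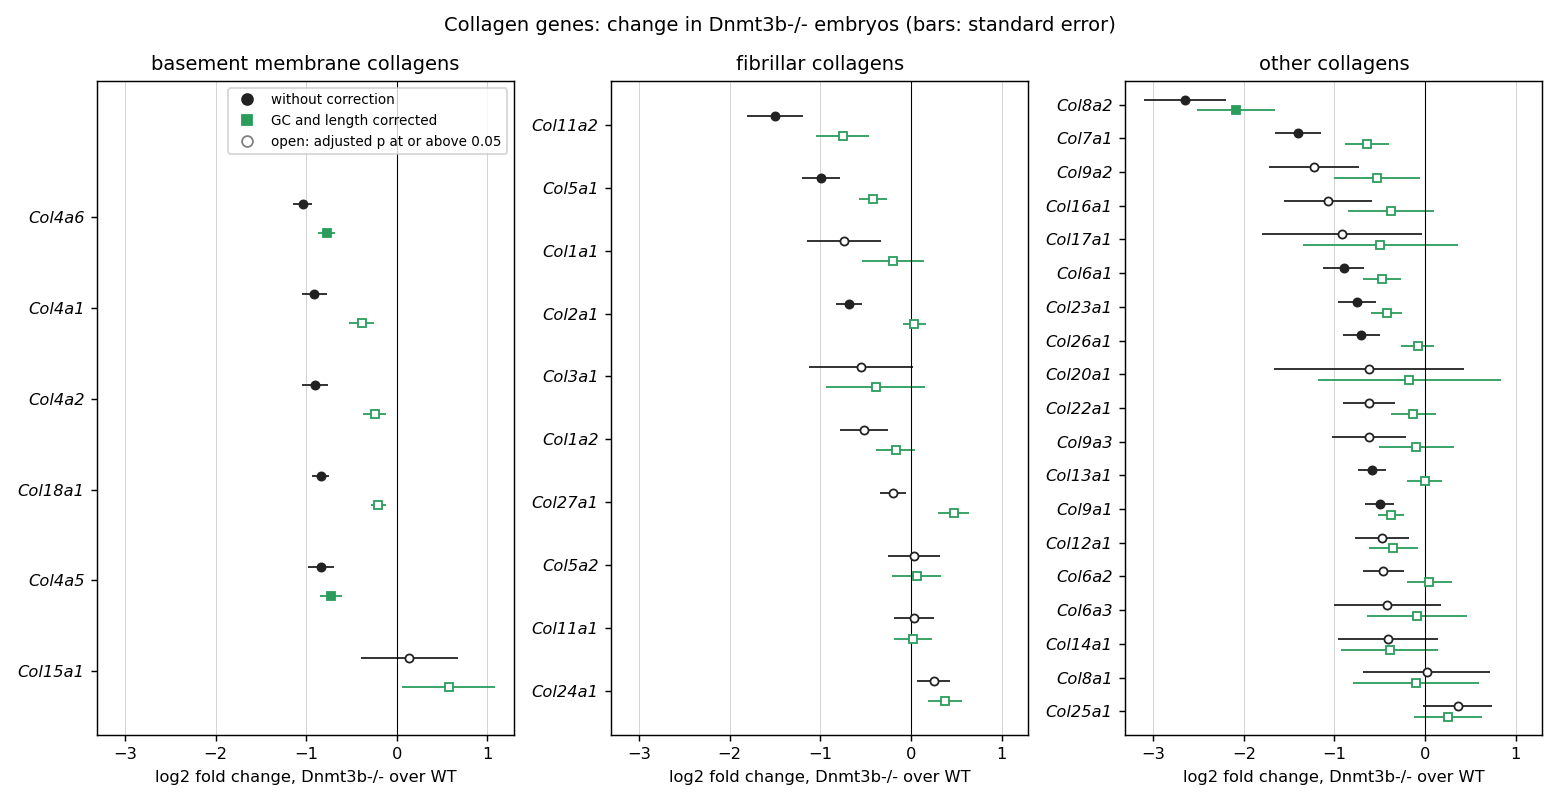
Change between genotypes as log2(Dnmt3b-/- over WT) (horizontal axis) for the 35 tested collagens in 3 classes, with and without the correction for GC content and length. Bars are standard errors, and filled symbols passed an adjusted p of 0.05. Black symbols lie left of 0 for 29 genes, and the green symbols of most genes lie nearer to 0, with Col4a6, Col4a5 and Col8a2 the filled ones.

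Counts on genes ranged from 41489332 to 58470286 for each library, so that 3 counts, the limit that a count of 0 allows, equalled 2.377 to 3.501 normalized counts. This limit covers counting error only, whereas the standard errors come from the edgeR fit and include the spread between embryos. The paper's methods call the embryos littermates, and the labels do not say more of their litters. The p-values set the difference between genotypes against the spread of these 6 embryos within genotypes. Dnmt3b itself lay between 6301 and 14003 normalized counts in WT embryos and between 4076 and 4756 in Dnmt3b-/- embryos (log2 fold change -1.04, SE 0.27, adjusted p = 0.017 by edgeR), and this call was lost when any Dnmt3b-/- embryo was left out (adjusted p of 0.061, 0.061 and 0.055). The inactive allele can still be transcribed, so the count does not by itself check a label. Embryo sex is not given in the labels. Xist, singled out after its values were seen, was at 13494 to 21920 normalized counts in WT embryos 1 and 3 and Dnmt3b-/- embryo 2, and at 3.40 to 11.02 in the other embryos, so both genotypes held embryos of each kind. Of the markers of other tissues that a dissection can carry over, the trophoblast genes Prl3d1, Prl2c2 and Tpbpa and the decidual gene Prl8a2 were at or under 3 counts in every embryo. Of the trophoblast markers 2 could be tested and 0 passed, but both were present and had positive log2 fold changes. Ascl2 stood at 1.36 (SE 0.61, edgeR adjusted p = 0.12, corrected 1.98) and Elf5 at 1.08 (SE 0.42, adjusted p = 0.080, corrected 0.90). Elf5 had every Dnmt3b-/- embryo above every WT embryo, as did 25.3% of all genes. The other 5 decidua markers were present and tested, and all 5 had positive log2 fold changes, whereas 52.1% of all genes had negative ones. Of these 5, 1 was higher, against 17.6% of all genes. This was Hand2 at 0.67 (SE 0.12, edgeR adjusted p = 0.0043, corrected 1.32 with adjusted p = 0.0018), and Cryab, Wnt4, Bmp2 and Pgr did not pass. Among 10 markers of E8.5 embryo tissues, all above the filter, 3 were lower, against 18.1% of all genes, and 3 were higher, against 17.6%. Markers of visceral and yolk sac endoderm were present and uneven. Their summed level was 368, 1106 and 169 FPKM in WT embryos 1, 2 and 3, and 394, 233 and 105 FPKM in Dnmt3b-/- embryos 1, 2 and 3. In whole embryos, fewer cells of a type and less RNA per cell cannot be told apart.

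Basement membrane collagens were the most abundant collagens of the E8.5 embryo. In FPKM, the count scaled by library depth and exon length so that genes can be compared, Col4a1 stood at 62.6 ± 11.55 FPKM (SD, n = 3) and Col18a1 at 58.5 ± 3.89 FPKM in WT embryos, and their ranges overlapped. Col4a2 followed at 24.7 ± 3.66 FPKM, below every value of Col18a1. Its range overlapped that of the fibrillar genes Col2a1 at 22.8 ± 4.57 FPKM and Col3a1 at 18.7 ± 11.9 FPKM. Col1a2 at 16.3 ± 3.82 FPKM overlapped with both of these, but every value of it lay below every value of Col4a2. The next levels were 12.9 ± 3.54 FPKM for Col26a1, 10.48 ± 1.33 FPKM for Col5a1, 10.2 ± 3.40 FPKM for Col5a2, 8.87 ± 0.484 FPKM for Col4a5 and 6.28 ± 0.619 FPKM for Col4a6. Every value of Col4a6 lay below every value of Col4a5. In all, 20 collagens exceeded 1 FPKM and 9 exceeded 10 FPKM in the WT mean. The summed level of the 44 collagens was 307, 268 and 275 FPKM in WT embryos 1, 2 and 3 and 202, 170 and 142 FPKM in Dnmt3b-/- embryos 1, 2 and 3. The sums did not overlap between the genotypes, but they are not corrected for GC content and length. Col4a1, Col18a1, Col4a2, Col2a1 and Col3a1 made up 62.5% to 70.1% of the sum in WT embryos, and none of them passed with the correction. Basement membrane collagens made up 51.3% to 66.7% of the sum in WT embryos and 48.9% to 55.1% in Dnmt3b-/- embryos, and these shares overlapped.

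**Figure D2:**
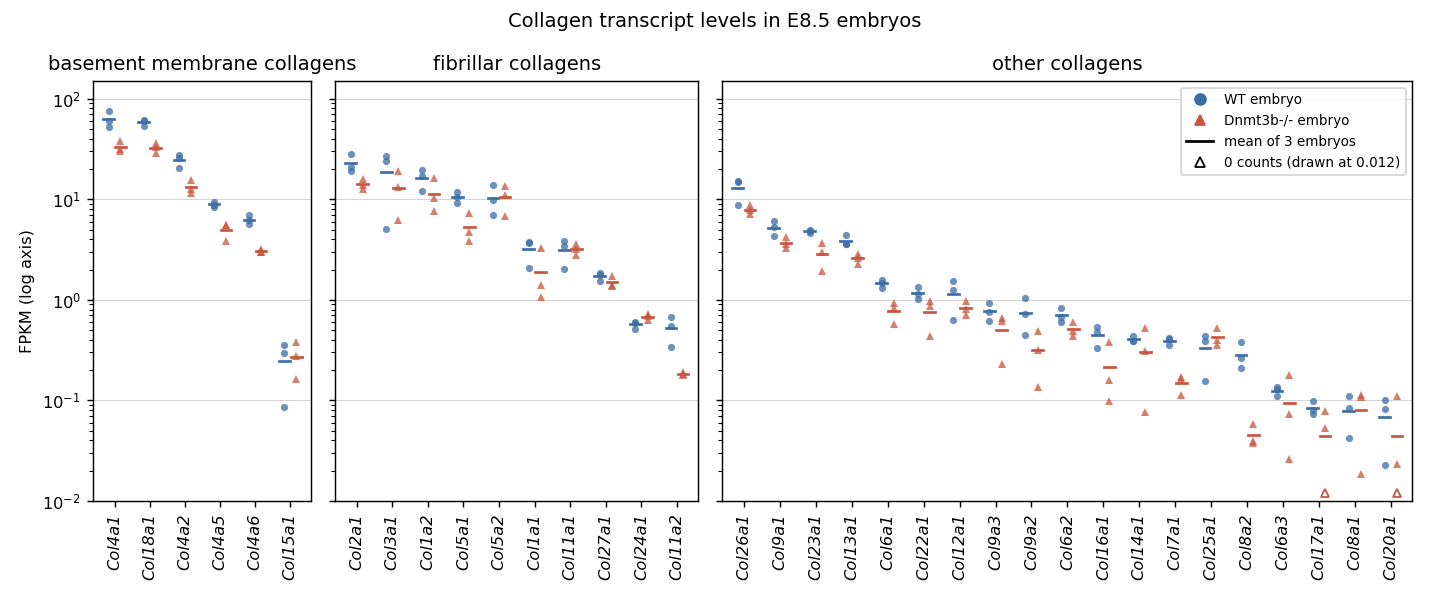
FPKM of the 35 tested collagens on a log axis, by class and in order of the WT mean, with 1 symbol for each embryo and a bar at the mean of 3. Col4a1 and Col18a1 stand highest in both genotypes, and Col11a2, Col7a1 and Col8a2 are the genes below 1 FPKM in the WT mean that passed the test.

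Of the 6 tested basement membrane collagens, 5 were lower in Dnmt3b-/- embryos, against 18.1% of all genes. These were the 4 tested type IV chains and Col18a1. The median log2 fold change of the class was -0.87, and -0.31 after the correction for GC content and length. Col4a1 and Col4a2 encode the chains of the type IV network found in nearly all basement membranes. Col4a1 had 19310, 23974 and 16692 normalized counts in WT embryos 1, 2 and 3 and 12100, 10141 and 9717 in Dnmt3b-/- embryos 1, 2 and 3. Every Dnmt3b-/- embryo lay below every WT embryo, and the log2 fold change was -0.91 (SE 0.14, edgeR adjusted p = 0.0021). Col4a2 had 7971, 8622 and 6407 normalized counts in WT and 4873, 3912 and 3556 in Dnmt3b-/- embryos (log2 fold change -0.90, SE 0.14, edgeR adjusted p = 0.0024). Again the groups did not overlap, and both genes were called in each of the 6 fits that left out 1 embryo. With the correction the log2 fold changes were -0.39 (adjusted p = 0.079) for Col4a1 and -0.24 (adjusted p = 0.19) for Col4a2. The ratio of Col4a1 to Col4a2 in FPKM was 2.36, 2.70 and 2.53 in WT embryos and 2.41, 2.52 and 2.66 in Dnmt3b-/- embryos, so that the ranges overlapped.

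Col4a5 and Col4a6 encode the chains of another type IV network, and both lie on the X chromosome. Col4a6 had 2221, 1987 and 1827 normalized counts in WT embryos and 1020, 961 and 957 in Dnmt3b-/- embryos. All WT embryos stood well above the Dnmt3b-/- embryos, and the log2 fold change was -1.04 (SE 0.10, edgeR adjusted p = 0.000602). Col4a5 had 2938, 2763 and 2636 normalized counts in WT and 1739, 1723 and 1209 in Dnmt3b-/- embryos (log2 fold change -0.84, SE 0.14, edgeR adjusted p = 0.0031). Neither gene overlapped between the genotypes. These were also the type IV chains that kept their call under the correction, with -0.77 (SE 0.10, adjusted p = 0.0019) for Col4a6 and -0.72 (SE 0.12, adjusted p = 0.0053) for Col4a5. Their exonic GC content, 53.6% and 51.4%, was below that of Col4a1 at 57.6% and Col4a2 at 60.6%. When embryos were left out singly, both genes were called in 6 of 6 fits without and 6 of 6 fits with the correction. WT embryo 2, with 4.59 normalized counts of Xist, lay between the other WT embryos for both genes. Dnmt3b-/- embryo 2, with 21920 normalized counts of Xist, likewise lay between the others of its genotype. The part of embryo sex in these levels was not tested. Among the 584 tested genes of the X chromosome, 34 were lower and 158 were higher, at a median log2 fold change of 0.19, and with the correction 51 were lower and 87 were higher, at a median of 0.00445.

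Col18a1, which encodes type XVIII collagen, the precursor of endostatin, had 16842, 17015 and 15057 normalized counts in WT and 10088, 9141 and 8125 in Dnmt3b-/- embryos. The groups did not overlap, with a log2 fold change of -0.84 (SE 0.10, edgeR adjusted p = 0.000823) that became -0.20 (adjusted p = 0.11) with the correction. Its exonic GC content was 60.2%. Col15a1, the related type XV collagen, had 91.9, 21.8 and 75.2 normalized counts in WT and 97.2, 42.0 and 70.3 in Dnmt3b-/- embryos, which overlapped (log2 fold change 0.14, SE 0.53, edgeR adjusted p = 0.86, corrected 0.57). WT embryo 2 was the low value, and without it the log2 fold change of Col15a1 was -0.26. Col4a3 and Col4a4, whose chains form the network of the kidney glomerulus, had too few counts to test.

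The type IV genes lie head to head in pairs. The annotated gene starts of Col4a1 (minus strand) and Col4a2 (plus strand) are 84 bp apart on chromosome 8. Those of Col4a3 and Col4a4 are 113 bp apart on chromosome 1, and those of Col4a6 and Col4a5 1275 bp apart on the X chromosome. Both genes of the Col4a1 and Col4a2 pair and both of the Col4a6 and Col4a5 pair were lower. A start region runs from 250 bases before to 50 bases after a RefSeq promoter start, on the gene's own strand. For Col4a1, Col4a6 and Col4a5 this start is not the gene start used for the distances. The start regions of all 4 genes of these pairs are given on GRCm38.p6, because the genes of each pair start close together and were lower together. They lie at chr8:11312777-11313076, minus strand (Col4a1), chr8:11312555-11312854, plus strand (Col4a2), chrX:141474027-141474326, minus strand (Col4a6) and chrX:141475169-141475468, plus strand (Col4a5). Capitals mark CCAAT, the CCAAT box, and GGGCGG, the GC box, searched on both strands, so that ATTGG and CCGCCC are their reverse complements.
Col4a1: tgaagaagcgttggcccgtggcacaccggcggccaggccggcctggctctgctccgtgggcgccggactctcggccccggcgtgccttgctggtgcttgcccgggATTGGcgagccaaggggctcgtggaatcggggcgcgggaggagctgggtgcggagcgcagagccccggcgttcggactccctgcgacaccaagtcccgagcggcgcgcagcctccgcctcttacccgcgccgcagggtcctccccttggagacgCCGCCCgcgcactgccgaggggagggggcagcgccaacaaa
Col4a2: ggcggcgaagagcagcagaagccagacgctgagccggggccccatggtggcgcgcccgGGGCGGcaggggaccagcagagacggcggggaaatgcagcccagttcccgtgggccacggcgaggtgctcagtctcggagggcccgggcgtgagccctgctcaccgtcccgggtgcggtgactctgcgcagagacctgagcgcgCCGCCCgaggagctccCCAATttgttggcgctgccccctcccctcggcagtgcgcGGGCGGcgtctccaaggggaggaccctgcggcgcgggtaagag
Col4a6: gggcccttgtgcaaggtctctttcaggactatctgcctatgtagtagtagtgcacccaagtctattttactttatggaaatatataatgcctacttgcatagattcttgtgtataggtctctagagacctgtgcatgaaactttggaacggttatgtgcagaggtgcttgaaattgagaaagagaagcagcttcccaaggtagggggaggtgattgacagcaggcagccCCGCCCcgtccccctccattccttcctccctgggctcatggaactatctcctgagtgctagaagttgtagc
Col4a5: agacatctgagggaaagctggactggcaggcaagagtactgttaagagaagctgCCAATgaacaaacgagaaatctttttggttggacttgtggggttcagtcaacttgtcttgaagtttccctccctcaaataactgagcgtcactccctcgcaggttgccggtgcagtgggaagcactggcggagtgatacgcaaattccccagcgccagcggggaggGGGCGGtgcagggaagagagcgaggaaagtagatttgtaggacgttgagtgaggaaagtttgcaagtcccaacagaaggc
The windows of Col4a1 and Col4a2 share 78 bases and are 74.0% and 73.7% GC, with 37 and 33 CG dinucleotides. The window of Col4a6 is 48.3% GC with 3 CG dinucleotides, and that of Col4a5 is 52.7% GC with 11. The start regions of the pairs that were lower thus differ widely in CG content.

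The same 300-base windows were held for 35 of the 44 collagens, 38 windows in all, since some genes have several starts. GGGCGG occurred on either strand in 23 of the 38 windows, against 35.7% of 32851 windows of all genes. CCAAT occurred in 13 of 38, against 37.4%, and TATAAA, the TATA box, in 5 of 38, against 13.6%. Of the collagens that were lower, Col2a1 and Col26a1 have no window, and both windows of Col9a1 and both of Col18a1 are counted. Among the windows of collagens that were lower, 10 of 15 held GGGCGG, and among those of tested collagens that did not pass, 9 of 15 did. The median GC content was 59.7% and 60.0% in these groups of windows and 52.7% over all windows. These counts and medians were close for the collagens that were lower and those that did not pass, no test was made of them, and a match is no more than a run of letters.

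Among the fibrillar collagens, 3 of 10 tested genes were lower in Dnmt3b-/- embryos (Col11a2, Col5a1 and Col2a1) and 0 were higher, against 18.1% and 17.6% of all genes. The median log2 fold change of the class was -0.53, and it came to -0.07 after the correction, under which 0 of the 10 passed. Col2a1 encodes the main collagen of cartilage and of the notochord sheath. It had 6902, 4760 and 5213 normalized counts in WT embryos and 3423, 3949 and 3148 in Dnmt3b-/- embryos. The groups did not overlap, with a log2 fold change of -0.68 (SE 0.14, edgeR adjusted p = 0.0077). Its transcript has 62.3% GC, and the correction moved the value to 0.04 (adjusted p = 0.87), and with it the sign. Col5a1 encodes a chain of the minor fibrillar collagen that starts fibrils, and had 4780, 4241 and 3702 normalized counts in WT against 2928, 1929 and 1540 in Dnmt3b-/- embryos (log2 fold change -0.99, SE 0.21, edgeR adjusted p = 0.0084). With the correction Col5a1 stood at -0.42 (adjusted p = 0.083).

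Col11a2 had the largest change of the class. Its chain joins that of Col11a1 in the minor fibrillar collagen of cartilage. Col11a2 had 175, 107 and 217 normalized counts in WT embryos and 61.1, 57.2 and 57.8 in Dnmt3b-/- embryos, without overlap (log2 fold change -1.50, SE 0.31, edgeR adjusted p = 0.0067, corrected -0.75 with adjusted p = 0.096). Col11a1 had 1433, 750 and 1269 normalized counts in WT and 1184, 1320 and 1039 in Dnmt3b-/- embryos, with full overlap (log2 fold change 0.04, SE 0.22, edgeR adjusted p = 0.92, corrected 0.02). The ratio of Col11a1 to Col11a2 in FPKM was accordingly 7.02, 6.02 and 5.02 in WT embryos and 16.6, 19.8 and 15.4 in Dnmt3b-/- embryos, which did not overlap. The exonic GC content is 47.8% for Col11a1 and 62.5% for Col11a2. A like pair is Col5a1 at 58.0% GC and Col5a2 at 49.7% GC. Col5a2 had 3138, 2233 and 4388 normalized counts in WT and 4357, 3477 and 2173 in Dnmt3b-/- embryos (log2 fold change 0.04, SE 0.28, edgeR adjusted p = 0.93, corrected 0.06). The ratio of Col5a1 to Col5a2 was 1.1995, 1.4949 and 0.664 in WT and 0.529, 0.437 and 0.558 in Dnmt3b-/- embryos. In both pairs the uncorrected ratios did not overlap between the genotypes, and the chain with the higher GC content was the lower one in Dnmt3b-/- embryos. With the correction, Col11a2 at -0.75 and Col5a1 at -0.42 still lay below Col11a1 at 0.02 and Col5a2 at 0.06. The ratios of Col4a1 to Col4a2, at 57.6% and 60.6% GC, overlapped. So did those of Col9a1 to Col9a2, at 52.2% and 62.9% GC, with 5.82 to 9.51 in WT and 7.18 to 23.8 in Dnmt3b-/- embryos. The ratios of Col4a5 to Col4a6 and of Col6a1 to Col6a2 overlapped as well. Every chain ratio computed other than those of Col11a1 to Col11a2 and Col5a1 to Col5a2 overlapped between the genotypes. The part of GC content in these ratios was not tested.

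The collagens of mesenchyme and bone, types I and III, did not pass the test with all 6 embryos. Col1a1 had 1083, 595 and 1052 normalized counts in WT and 930, 399 and 305 in Dnmt3b-/- embryos (log2 fold change -0.74, SE 0.40, edgeR adjusted p = 0.19, corrected -0.20). Col1a2 had 4932, 3050 and 4331 in WT and 4075, 2583 and 1944 in Dnmt3b-/- embryos (log2 fold change -0.52, SE 0.27, edgeR adjusted p = 0.16, corrected -0.17). The ranges overlapped for both genes. Col3a1 had 7215, 1363 and 6469 normalized counts in WT and 5086, 3555 and 1672 in Dnmt3b-/- embryos (log2 fold change -0.55, SE 0.57, edgeR adjusted p = 0.49, corrected -0.39), and it was the gene of the class with the widest spread among WT embryos. Without WT embryo 2, the log2 fold change of Col3a1 was -0.99 (adjusted p = 0.053). The ratio of Col1a1 to Col1a2 ranged from 0.172 to 0.214 in WT and from 0.136 to 0.201 in Dnmt3b-/- embryos. Without Dnmt3b-/- embryo 1, Col1a1 at -1.36 (edgeR adjusted p = 0.012) and Col1a2 at -0.84 (adjusted p = 0.023) passed the test. Col27a1, a fibrillar collagen of cartilage, stood at -0.20 (SE 0.14, edgeR adjusted p = 0.32) and at 0.47 (SE 0.17, adjusted p = 0.082) with the correction, so its sign also depended on this choice. Col24a1 had 204, 209 and 175 normalized counts in WT and 214, 236 and 250 in Dnmt3b-/- embryos (log2 fold change 0.25, SE 0.18, edgeR adjusted p = 0.31, corrected 0.37), a separation that did not pass the test.

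Of the 19 tested other collagens, 7 were lower in Dnmt3b-/- embryos (Col8a2, Col7a1, Col6a1, Col23a1, Col26a1, Col13a1 and Col9a1) and 0 were higher, against 18.1% and 17.6% of all genes. The median log2 fold change was -0.62, and -0.35 after the correction. Col8a2 encodes a short-chain collagen that forms a lattice, known from the cornea and from vessel walls, and it changed more than any other collagen. It had 55.5, 43.6 and 79.6 normalized counts in WT embryos and 12.02, 8.17 and 7.93 in Dnmt3b-/- embryos, a fold of 6.26 between the genotypes at counts not far above the limit of 3. The log2 fold change was -2.65 (SE 0.45, edgeR adjusted p = 0.0031) and -2.09 (SE 0.43, adjusted p = 0.011) with the correction. Col8a2 was called in 6 of 6 fits that left out 1 embryo, and with the correction in 5 of 6 such fits, the exception being the fit without WT embryo 3 (adjusted p = 0.053). Its partner chain gene Col8a1 had 20.6, 10.3 and 27.4 normalized counts in WT and 28.1, 26.8 and 4.53 in Dnmt3b-/- embryos, which overlapped (log2 fold change 0.02, SE 0.70, edgeR adjusted p = 0.99, corrected -0.10). The start region of Col8a2 is shown because this gene carried the largest change. It lies at chr4:126286544-126286843, plus strand, and capitals mark GGGCGG or its reverse complement, with 4 matches of which the last pair overlaps.
Col8a2: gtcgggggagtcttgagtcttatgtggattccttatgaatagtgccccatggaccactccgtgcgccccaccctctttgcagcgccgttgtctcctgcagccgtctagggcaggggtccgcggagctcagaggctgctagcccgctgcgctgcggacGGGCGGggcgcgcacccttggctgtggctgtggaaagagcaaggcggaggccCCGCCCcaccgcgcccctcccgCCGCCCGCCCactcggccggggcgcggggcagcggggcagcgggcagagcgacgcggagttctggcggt
The window of Col8a2 is 71.7% GC with 32 CG dinucleotides and holds no CCAAT.

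Col7a1, the collagen of the anchoring fibrils that tie epithelia to the matrix below, had 181, 185 and 158 normalized counts in WT and 72.1, 75.9 and 49.9 in Dnmt3b-/- embryos. The groups did not overlap (log2 fold change -1.40, SE 0.26, edgeR adjusted p = 0.0041), and the corrected value was -0.64 (adjusted p = 0.091). Col26a1 had 1993, 1192 and 2051 normalized counts in WT and 1197, 966 and 1055 in Dnmt3b-/- embryos (log2 fold change -0.70, SE 0.20, edgeR adjusted p = 0.027, corrected -0.08). WT embryo 2 fell just below the highest Dnmt3b-/- embryo. Of the 4 transmembrane collagens, Col23a1 and Col13a1 were lower, against 18.1% of all genes. Col23a1 had 1329, 1262 and 1347 normalized counts in WT and 1008, 814 and 523 in Dnmt3b-/- embryos (log2 fold change -0.75, SE 0.21, edgeR adjusted p = 0.025, corrected -0.42). Col13a1 had 550, 677 and 543 in WT and 348, 397 and 436 in Dnmt3b-/- embryos (log2 fold change -0.58, SE 0.15, edgeR adjusted p = 0.019, corrected -0.01). Neither gene overlapped between the genotypes. The other two transmembrane genes, Col17a1 of the hemidesmosome and Col25a1, stood at -0.92 (SE 0.88, corrected -0.49) and 0.36 (SE 0.38, corrected 0.25) and did not pass.

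Type VI collagen forms beaded filaments around cells. Col6a1 had 284, 253 and 298 normalized counts in WT and 159, 180 and 109 in Dnmt3b-/- embryos, without overlap (log2 fold change -0.90, SE 0.23, edgeR adjusted p = 0.017, corrected -0.48). Its neighbour Col6a2, whose chain assembles with it, had 196, 173 and 242 in WT and 127, 141 and 176 in Dnmt3b-/- embryos, with a slight overlap (log2 fold change -0.46, SE 0.23, edgeR adjusted p = 0.15, corrected 0.05). Col6a3 did not pass at -0.42 (SE 0.59, corrected -0.09). Of the 8 tested collagens that decorate fibrils (FACIT), Col9a1 alone was lower (12.5%), no more than the 18.1% of all genes. All 8 values were negative, against 52.1% of all genes, from -1.22 for Col9a2 to -0.41 for Col14a1 (corrected -0.39). Col9a1, whose product sits on type II fibrils, had 1053, 857 and 1205 normalized counts in WT and 844, 708 and 651 in Dnmt3b-/- embryos (log2 fold change -0.50, SE 0.16, edgeR adjusted p = 0.038, corrected -0.37). The groups did not overlap, but WT embryo 2 and Dnmt3b-/- embryo 1 lay close together. Col9a2 at -1.22 (SE 0.50, edgeR adjusted p = 0.089, corrected -0.53) and Col9a3 at -0.62 (SE 0.41, adjusted p = 0.27, corrected -0.10), the further chains of type IX, did not pass. The remaining FACIT genes stood at -0.48 (SE 0.30, corrected -0.35) for Col12a1, -1.07 (SE 0.48, corrected -0.38) for Col16a1, -0.62 (SE 1.05, corrected -0.17) for Col20a1 and -0.62 (SE 0.29, corrected -0.13) for Col22a1, and none of these 4 passed. Without WT embryo 2, Col12a1 at -0.77 (edgeR adjusted p = 0.010) and Col9a2 at -1.48 (adjusted p = 0.046) were also lower, as was Col16a1 at -1.78 (adjusted p = 0.023) without Dnmt3b-/- embryo 2.

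Of the 15 calls, 10 were made in all 6 fits that left out 1 embryo. The other 5 depended on single embryos. Col13a1 was lost without Dnmt3b-/- embryo 1 or 2 (adjusted p of 0.058 and 0.062), Col6a1 without WT embryo 1 or 3 (0.060 and 0.056), and Col23a1 without WT embryo 1 or 3 or Dnmt3b-/- embryo 2 (0.067, 0.057 and 0.072). Col26a1 and Col9a1 were called in 2 of 6 such fits each, without WT embryo 2 and without Dnmt3b-/- embryo 1, with adjusted p up to 0.10 and 0.12 in the rest. The number of collagens that were lower ranged from 11 (without WT embryo 1 or 3) to 17 (without WT embryo 2), and 0 were higher in any of the 6 fits.

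The 9 collagens that were not tested had between 0 and 20 counts in an embryo. They were the fibrillar Col5a3, the basement membrane genes Col4a3 and Col4a4, and Col6a4, Col6a5, Col6a6, Col10a1, Col19a1 and Col28a1. Col10a1, the collagen of hypertrophic cartilage, was at or under 3 counts in every embryo, with 2 counts in WT embryo 1 and 0 in the others. Col5a3 had 10.3, 9.19 and 15.045 normalized counts in WT and 8.02, 7.003 and 6.80 in Dnmt3b-/- embryos. A difference in these genes was not detectable at this depth.

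Many collagens were lowest or highest in the same embryo. How often the same embryos were lowest or highest over all genes was not counted, so the pattern may not be particular to collagens. WT embryo 2 was the lowest WT embryo in 24 of the 35 tested collagens, including 8 of the 10 fibrillar genes but 1 of the 6 basement membrane genes. Dnmt3b-/- embryo 3 was the lowest of its genotype in 27 of 35, and Dnmt3b-/- embryo 1 the highest in 22 of 35, among them 6 of 6 basement membrane genes. The median SD of log2 normalized counts within a genotype was 0.18 in WT and 0.20 in Dnmt3b-/- embryos for basement membrane collagens, 0.42 and 0.33 for fibrillar collagens, and 0.25 and 0.48 for other collagens. The class with the tightest replicates was thus also the class with the largest share of calls. WT embryo 2 was the embryo with 1106 FPKM of visceral and yolk sac endoderm markers, and Dnmt3b-/- embryo 3 the embryo with 105 FPKM, and the part of these markers in the collagen levels was not tested. All 8 markers had negative log2 fold changes (median -1.197), against 52.1% of all genes, and 1 of the 8 was lower, against 18.1%. This was Amn at -2.59 (SE 0.84, edgeR adjusted p = 0.043), which stood at -1.31 (adjusted p = 0.13) without WT embryo 2. Markers of the parietal endoderm, a tissue that secretes a thick basement membrane rich in type IV collagen, summed to 113 to 124 FPKM in WT and 81.2 to 114 FPKM in Dnmt3b-/- embryos. Of these 6 markers, 1 was lower (Pth1r at -0.77, SE 0.18, edgeR adjusted p = 0.011, corrected -0.16), against 18.1% of all genes. The other 5 did not pass, and the median of the 6 was -0.28. The ranges of the summed parietal markers overlapped. In the WT mean this sum held 41.8 FPKM of Lamb1 and 45.7 FPKM of Sparc, both also among the basement membrane partners. Thbd stood at -0.65 (SE 0.28, edgeR adjusted p = 0.11, corrected -0.58). Pth1r and Thbd had every Dnmt3b-/- embryo below every WT embryo, as did 26.5% of all genes. The 4 tested type IV chains summed to 87.0 to 118 FPKM in WT and 48.7 to 62.3 FPKM in Dnmt3b-/- embryos, without overlap. These sums, too, are not corrected for GC content and length. The part of parietal endoderm in these levels was not tested. Without WT embryo 2, the log2 fold changes were -0.76 for Col4a1, -0.81 for Col18a1, -0.84 for Col4a5 and -1.05 for Col4a6, and all 4 stayed below an adjusted p of 0.05.

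**Figure D3:**
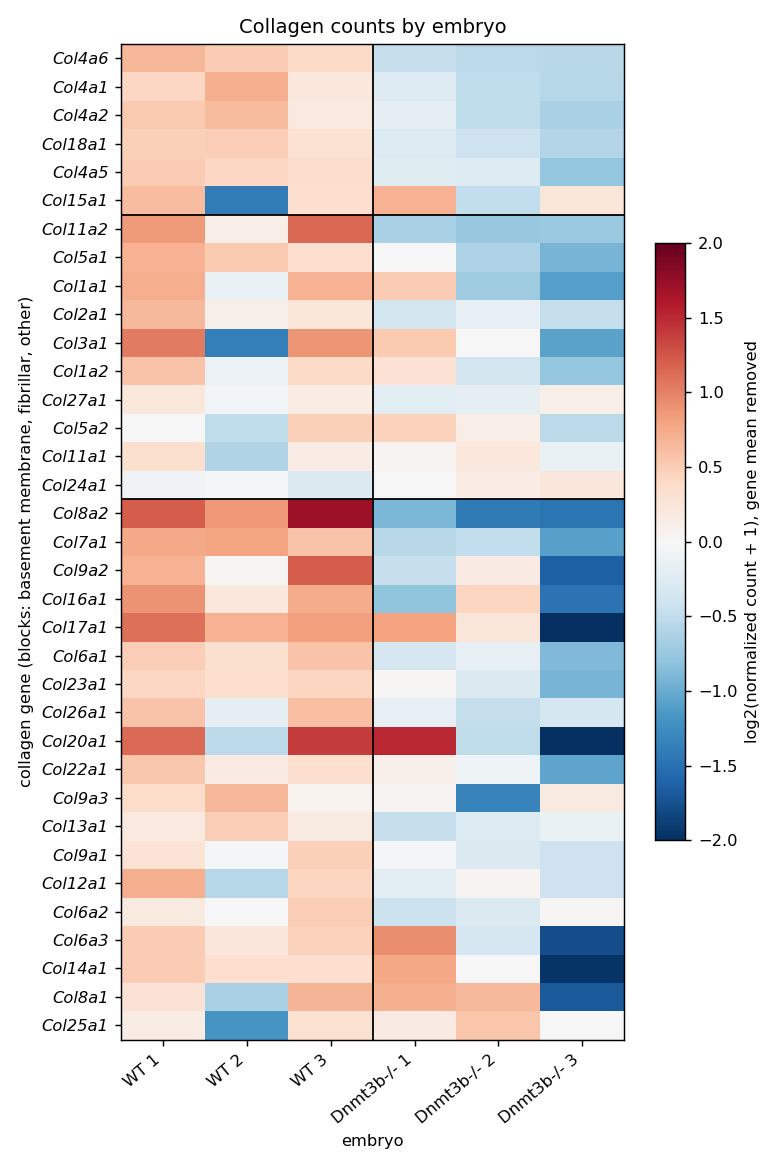
Log2(normalized count + 1) of the 35 tested collagens in each of the 6 embryos with the mean of each gene removed, on a color scale that ends at -2 and 2. Black lines part the genotypes and the classes. Type IV chains and Col18a1 are uniformly higher in the 3 WT embryos, while in the fibrillar block WT embryo 2 is paler or blue and Dnmt3b-/- embryo 3 is the darkest blue for many genes.

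The fall of fold changes with GC content was seen in the collagens as in all genes. Pearson's r between exonic GC content and log2 fold change was -0.45 across 15057 genes and -0.63 across the 35 collagens, where genes share the 6 libraries and are not independent. It was -0.77 across the 10 fibrillar and -0.67 across the 19 other collagens, and 0.01 across the 6 basement membrane collagens, too few genes to read a trend from. After the correction it was 0.007 across all genes and -0.21 across the collagens. With the genes split by GC content into 5 bins of like size, the median over all genes in the richest bin, from 56.1% to 73.0% GC, was -0.52, and 41.6% of its genes were lower. It held 21 of the 35 tested collagens, of which 11 were lower, with a median of -0.84. The poorest bin held 0 collagens. In the middle bin, from 48.5% to 52.3% GC, 13.8% of all genes and 2 of 6 collagens (Col4a5 and Col9a1) were lower. What underlies the fall was not tested.

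**Figure D4:**
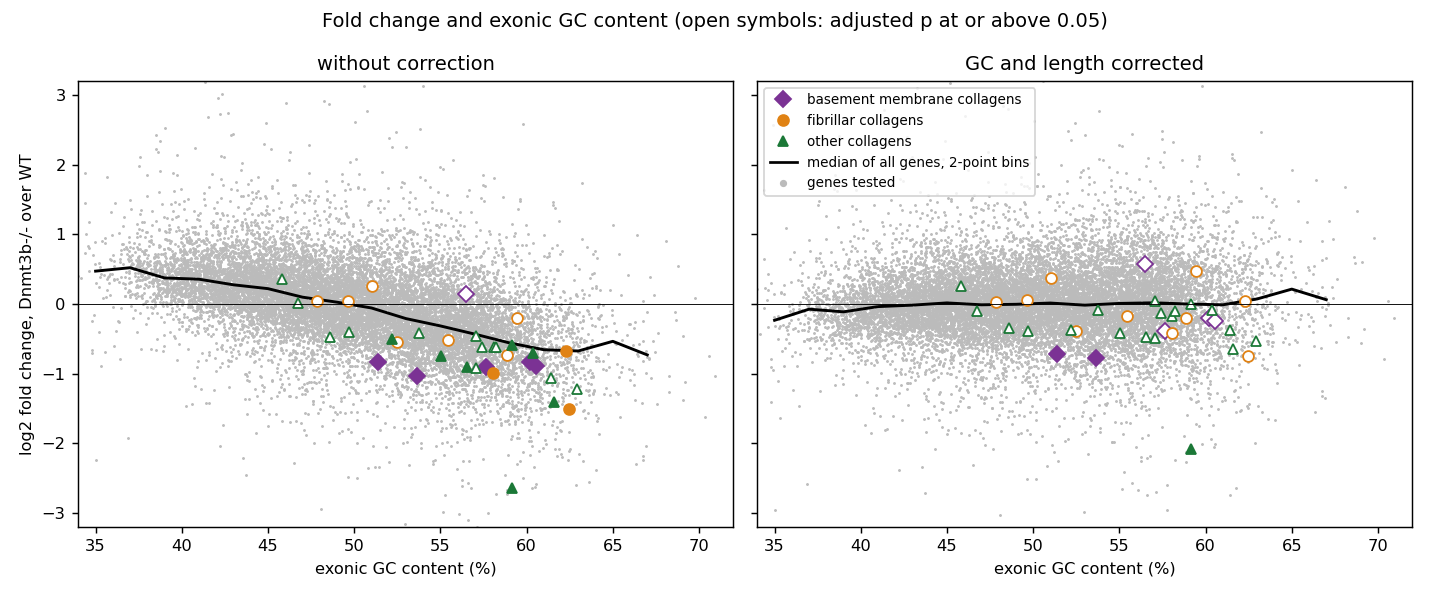
Change between genotypes as log2(Dnmt3b-/- over WT) against exonic GC content in percent, for all genes tested (gray, those beyond 3.2 on either side not drawn) and the collagens by class, without and with the correction. The black line, the median of all genes in bins of 2 percentage points, falls from above 0 to about -0.7 at high GC and is flat after the correction, and the filled symbols, the collagens that passed, drop from 15 to 3.

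The genes that work on or with collagens were examined in 5 lists. Over all genes tested, 18.1% were lower and 17.6% were higher, and with the correction 10.8% and 12.5%. Of 31 tested genes of collagen synthesis and processing, 9 were lower (29.0%) and 1 was higher (median log2 fold change -0.38). With the correction 3 were lower and 3 were higher (median -0.06), no more than the shares over all genes. Fkbp10, a prolyl isomerase of the endoplasmic reticulum that folds procollagen, had 1695, 1572 and 1796 normalized counts in WT and 868, 708 and 601 in Dnmt3b-/- embryos (log2 fold change -1.22, SE 0.14, edgeR adjusted p = 0.000898, corrected -0.76 with adjusted p = 0.0024). Plod3, a lysyl hydroxylase that also glycosylates collagen, had 1878, 1875 and 1888 in WT and 1110, 853 and 666 in Dnmt3b-/- embryos (log2 fold change -1.10, SE 0.17, edgeR adjusted p = 0.0022, corrected -0.62 with adjusted p = 0.0091). Both genes were apart between the genotypes, and both were called in 6 of 6 fits with an embryo left out, with and without the correction. Pxdn, the peroxidase that cross-links type IV collagen, was lower at -0.57 (SE 0.12, edgeR adjusted p = 0.0069, corrected -0.38 with adjusted p = 0.026). Plod2, the lysyl hydroxylase of the chain ends, was the gene of this list that was higher, with 4978, 4810 and 4885 normalized counts in WT and 6675, 7410 and 7500 in Dnmt3b-/- embryos (log2 fold change 0.56, SE 0.07, edgeR adjusted p = 0.0011, corrected 0.25 with adjusted p = 0.024). The corrected calls of Pxdn and Plod2 were each made in 2 of 6 fits with an embryo left out. P4hb, the abundant beta subunit of prolyl hydroxylase, stood at -0.22 (SE 0.07, edgeR adjusted p = 0.045), a call that was lost with any embryo left out, and at 0.01 with the correction. Serpinh1, the collagen chaperone, stood at -0.27 (SE 0.10, edgeR adjusted p = 0.071) and at 0.13 with the correction. It passed with DESeq2 (adjusted p = 0.040) and without WT embryo 2 or Dnmt3b-/- embryo 1 (edgeR adjusted p of 0.036 and 0.022).

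All 16 tested partners of type IV collagen in basement membranes had negative log2 fold changes (median -0.56, corrected -0.22), against 52.1% of all genes. Of these partners 7 were lower, against 18.1% of all genes, and 4 with the correction, against 10.8%. Hspg2, which encodes the proteoglycan perlecan, had 6050, 4750 and 3530 normalized counts in WT and 2066, 1565 and 1180 in Dnmt3b-/- embryos, without overlap (log2 fold change -1.57, SE 0.24, edgeR adjusted p = 0.0019, corrected -0.72 with adjusted p = 0.019). Lama5 and Lama1, laminin chains of embryonic basement membranes, were lower by the same test at -1.46 (SE 0.19, corrected -0.71) and -0.85 (SE 0.17, corrected -0.51). The corrected calls of Hspg2, Lama1 and Lama5 were made in 3, 3 and 2 of 6 fits with an embryo left out. Of 8 tested collagen receptors, 2 were lower and 1 was higher (median 0.17), and with the correction 1 was lower and 0 were higher (median 0.09). For so few genes these counts lay near the shares over all genes. Mrc2, a receptor that takes up collagen for degradation, and Ddr1, a receptor kinase, were lower at -1.06 (SE 0.17, corrected -0.50) and -0.83 (SE 0.11, corrected -0.20). Mrc2 was the receptor that passed with the correction, in 3 of 6 fits with an embryo left out. Itgb1, the integrin chain shared by the collagen-binding integrins, had 18075, 17915 and 17814 normalized counts in WT and 21477, 21151 and 20993 in Dnmt3b-/- embryos (log2 fold change 0.24, SE 0.06, edgeR adjusted p = 0.015). The call of Itgb1 was lost without Dnmt3b-/- embryo 2 (adjusted p = 0.063), and the corrected value was -0.03.

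Of 10 tested matrix proteins that associate with fibrils, 1 was lower, against 18.1% of all genes, and 0 were higher, against 17.6% (median 0.14). With the correction the median turned to -0.14 with the same counts, against 10.8% and 12.5% of all genes. The lower gene was Fn1 in both fits, fibronectin, with 34971, 39187 and 28116 normalized counts in WT and 24543, 18725 and 17729 in Dnmt3b-/- embryos (log2 fold change -0.75, SE 0.15, edgeR adjusted p = 0.0067, corrected -0.47 with adjusted p = 0.043). The corrected call of Fn1 was made in 2 of 6 fits with an embryo left out, with adjusted p up to 0.15 in the others. Of 7 regulators of cartilage and notochord, tissues in which Col2a1 and Col11a2 are active, 0 were lower and 2 were higher (median 0.28). The same 2 were higher with the correction (median 0.60). Over all genes 17.6% were higher, and 12.5% with the correction. Sox9, a transcription factor that drives Col2a1 in cartilage, had 807, 581 and 681 normalized counts in WT and 940, 1047 and 1240 in Dnmt3b-/- embryos, without overlap (log2 fold change 0.64, SE 0.16, edgeR adjusted p = 0.015, corrected 0.62). Shh, a signal of the notochord, had 492, 301 and 449 in WT and 670, 714 and 822 in Dnmt3b-/- embryos (log2 fold change 0.83, SE 0.19, edgeR adjusted p = 0.012, corrected 0.97). Sox9 and Shh thus stood higher in the embryos in which Col2a1 stood lower before the correction. The corrected call of Shh was made in 6 of 6 fits with an embryo left out and that of Sox9 in 3 of 6.

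**Figure D5:**
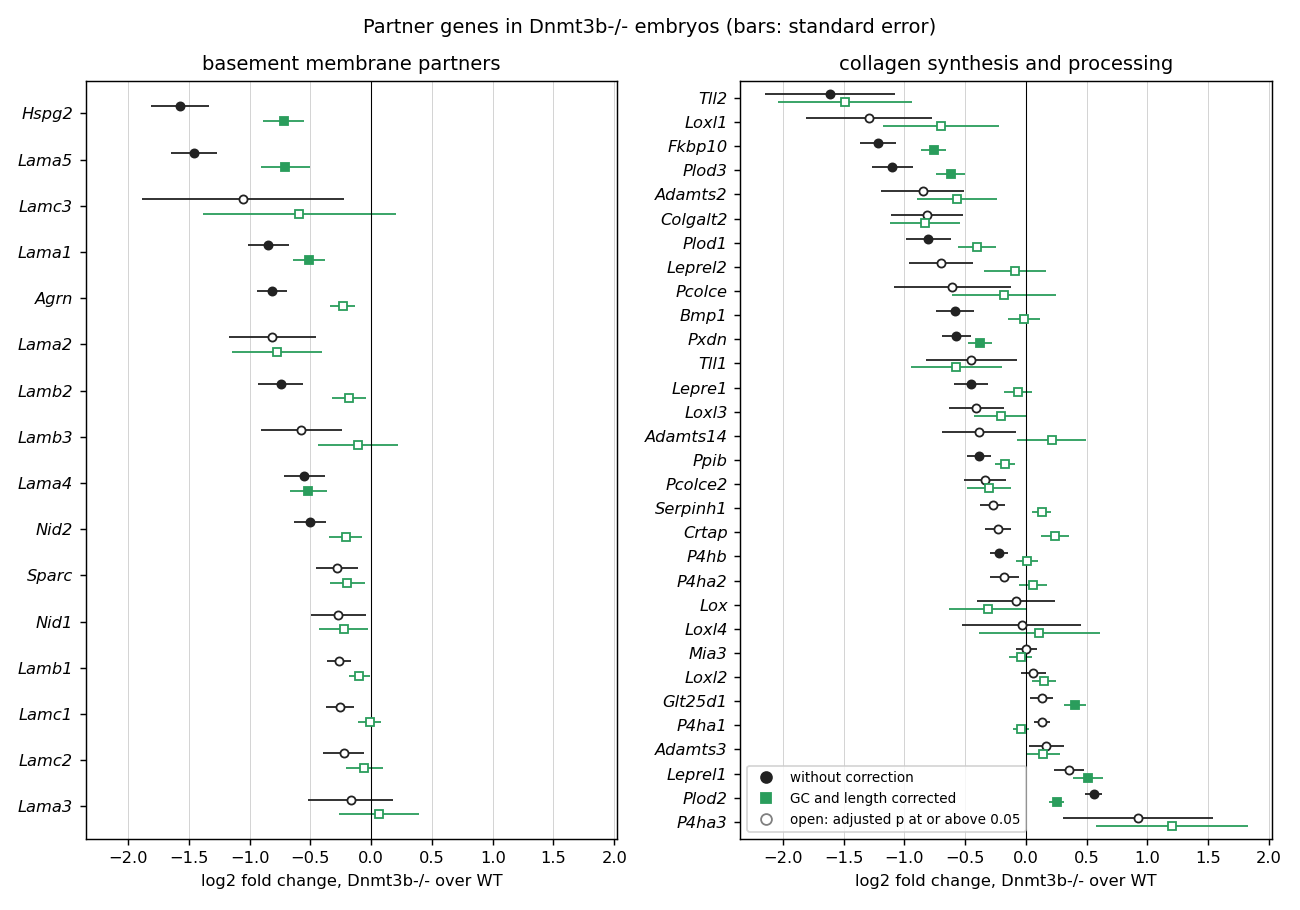
Change between genotypes as log2(Dnmt3b-/- over WT) with standard errors for the 16 basement membrane partners and the 31 genes of collagen synthesis and processing, with and without the correction. Filled symbols passed an adjusted p of 0.05. All black symbols of the basement membrane panel lie left of 0, while the synthesis panel spreads to both sides, with Fkbp10 and Plod3 filled on the left and Plod2 on the right.

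Some counts carry a limit of the annotation. In RefSeq, 14 collagens share exon bases with another gene, mostly an unnamed transcript on the opposite strand that is not in the table. Among the collagens that were lower, such stretches cover 9.59% of the exons of Col4a1 and 7.66% of those of Col2a1. Col4a1 and Col4a2 share 22 bases, and Col9a3 shares 7.98% of its exons with Tcfl5. The libraries kept strand, but the strand setting of the counting is not given in the sources used here, so reads in these stretches cannot be assigned with certainty.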

How the data were processed

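RNA-Seq libraries of 3 WT and 3 Dnmt3b-/- E8.5 embryos were analysed, grouped by their labels; the methylation libraries of the series were not analysed here. Per the labels and methods, the authors aligned read pairs to mm10 with TopHat2 2.0.12 and counted reads in RefSeq exons with HTSeq 0.6.0 (versions from the submitters' processing notes), and deposited raw counts for 24065 genes. The deposited normalized signal of each embryo is the raw count divided by 1 factor per library (DESeq2 1.4.5 by the authors); it was only checked. The authors' columns of log2 fold change and adjusted p hold their own comparison and were not used.

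Raw counts were scaled with TMM and tested with edgeR 4.0.16 (quasi-likelihood, R 4.3.3). The 15114 genes averaging 10 or more counts per embryo entered, and p-values were adjusted over all of them (Benjamini-Hochberg). Calls are at an adjusted p below 0.05. Normalized counts are scaled to the mean effective library size. FPKM was computed from the counts, RefSeq exon length (GRCm38.p6) and the effective library size, and standard errors were taken as |log2 fold change| over the square root of F. In RefSeq, 22604 genes matched by symbol and 1277 by an older symbol, 99.2% in all, and all 44 collagens matched. For the correction, natural splines (5 degrees of freedom) on GC content and on log2 exon length were fitted to the deviation of each library and entered as offsets. The edgeR fit with TMM was tested on simulated counts with and without the correction, and the other fits were not. In the simulation every gene had the same small spread between embryos, and the GC trend was linear. It therefore does not show how the fit or the correction behaves for genes with a wide spread between embryos. Depth was 41489332 to 58470286 counts per library. Alternatives were to drop the filter or raise it to 50 counts, DESeq2 size factors and total counts as scaling, DESeq2 1.42.0, limma 3.58.1 with trend on log2 CPM, a replicate block, the correction, each embryo left out, and a fold change above 2; leaving out embryos under the correction was chosen after seeing the data. The collagens and the gene lists were chosen with earlier results of these data known. Every collagen could be named, and of each other list the 4 members with the highest FPKM and the 4 with the smallest p; Xist and Tcfl5 were named outside this rule, after their values or positions were seen. Tables and figures were made with Python 3.11.15, pandas 2.3.3, numpy 2.4.6 and matplotlib 3.10.9.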

Additional observations from a re-analysis of the deposited data

How the results depend on the processing

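The 15 collagens that were lower in Dnmt3b-/- embryos were the same 15 with DESeq2 and with limma, the count was 15 without a filter and under both other scalings, 14 with a mean of at least 50 counts, and 11 to 17 with an embryo left out, and 0 were higher in any of these fits. It fell to 3 with the correction for GC content and length, to 4 with the replicate block and the correction together, and to 4 with a fold change above 2 required. The corrected count of 3 was 3 to 6 with an embryo left out, the 6 being without WT embryo 2, and without Dnmt3b-/- embryo 1 Col27a1 was then higher. The median of the fibrillar collagens moved from -0.53 to -0.074 with the correction and to -0.075 with the block as well, and that of the basement membrane collagens from -0.87 to -0.31 and -0.30. Among 224 comparisons of a called collagen with an alternative, 185 kept direction and call, 37 lost the call and 2 reversed. Among 297 of the other collagens, 270 kept both, 5 gained a call and 22 reversed.

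Embryos with the same number did not deviate together (Pearson's r of -0.05, -0.15 and -0.01 for numbers 1, 2 and 3), so the numbers were not taken as pairs. The replicate block left 14 collagens lower, without Col9a1 (adjusted p = 0.060), and with the correction it left 4, Col5a1 being added.

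The signs that turned are given as log2 fold changes. With the correction, and then with the block as well, Col2a1 was at 0.037 and 0.036, Col27a1 at 0.47 and 0.45, Col6a2 at 0.048 and 0.030, P4hb at 0.0092 and 0.0083, Serpinh1 at 0.13 and 0.13, and Itgb1 at -0.034 and -0.034. With total counts as scaling, Col11a1 was at -0.043, Col5a2 at -0.034 and Col8a1 at -0.048. Col8a1 was also at -0.21 with limma, -0.10 with the block, -0.10 with the correction and -0.22 with both. With an embryo left out, the range was -0.19 to 0.22 for Col11a1, -1.06 to 0.064 for Col14a1, -0.26 to 0.51 for Col15a1, -0.19 to 0.31 for Col5a2, -1.31 to 0.039 for Col6a3 and -0.31 to 0.50 for Col8a1. The causes were not tested. Genes under about 100 normalized counts, such as Col8a1 and Col6a3, are the least certain, and 9 collagens lay below the filter.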
